A study of Mus musculus with 3 samples.

Results

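The genes described here encode the subunits of ligand-gated ion channels, and were measured in 3 cultures of medial ganglionic eminence (MGE) interneurons. Members were all probe sets that the array's probe table assigns to 1 gene symbol of the GABA-A, glycine, AMPA, kainate, delta, NMDA, nicotinic, 5-HT3 or P2X receptor families. They numbered 65 probe sets for 62 genes, out of 23521 probe sets for 22180 genes with a symbol of their own. The 3 cultures form 1 group of wild-type CD-1 mouse cells from embryonic day 13, and no control group exists among them, so levels are set only against a background line. The labels call the cells purified interneurons and the cultures biological replicates. The MGE cells were grown with FGF2 at 40 ng/ml and received AraC, a nucleoside analogue that kills dividing cells, at 1 µM for 24 h from day 5, and RNA was taken 2 days after washout. Each culture was measured on 1 array as log2 signal per probe set, and errors are SD over n = 3 cultures. Nothing in the labels says how many embryos a culture pooled or whether cultures came from separate litters.

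Ligand-gated ion channels open within milliseconds of binding a transmitter. GABA-A, glycine, nicotinic and 5-HT3 receptors are pentamers of the Cys-loop family, in which the subunits chosen set where a receptor sits, how tightly it binds its ligand and how fast it closes. Ionotropic glutamate receptors are tetramers, and P2X receptors are ATP-gated trimers. Immature interneurons already carry such receptors before they form synapses, and GABA acting on them is commonly depolarizing at that stage.

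The subunit genes split into a set with clear signal and a set at or under background. Signal was tested against a background line of 6.26 log2 units, the 95th percentile of the means of 1440 probe sets for receptors of smell, pheromones and bitter taste, by a 1-sided moderated test in limma adjusted over all 22081 probe sets tested. At an adjusted p under 0.05, 33 of 62 member genes (53.2%) were above the line, where 63.4% of all 20751 genes tested were. A stricter call, 1 log2 unit above the line, was reached by 28 members (45.2%), against 47.6% of all genes. The opposite test called 20 members (32.3%) below the line, against 26.8% of all genes, and 9 members had neither call. As a group the members were not called above the line more often than other genes, and the account below is of which subunits fell on which side. Being below the line does not show that a transcript was missing, and since probe sets bind with different strength, levels of different genes are not ranked against each other. The plot of calls by family shows the division.

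**Figure D1:**
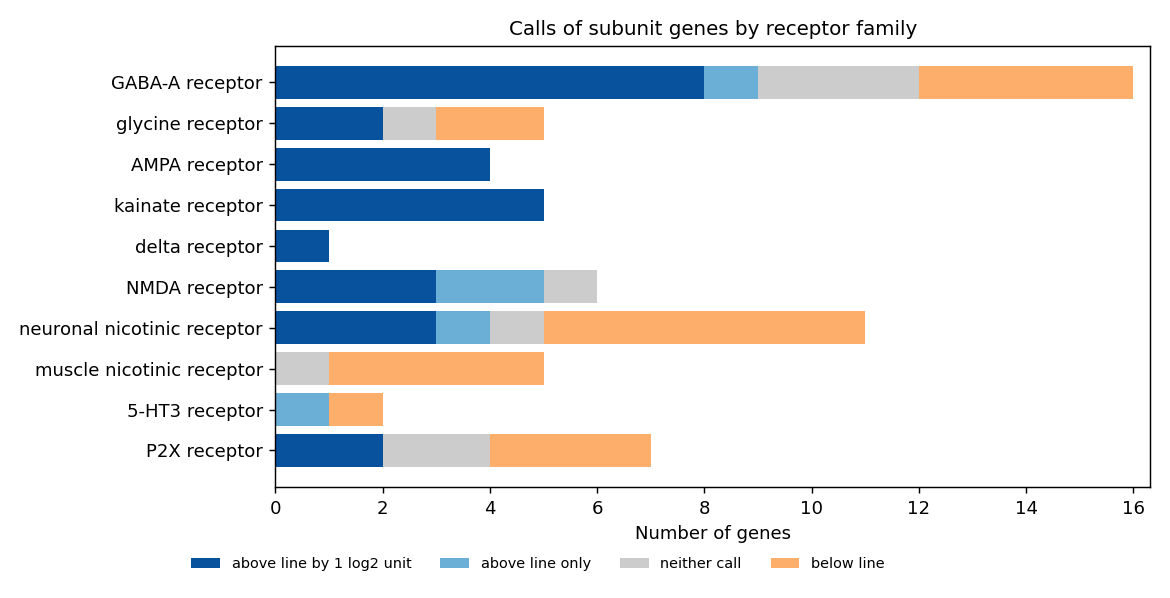
Number of member genes per receptor family (x axis) by call: above the background line by 1 log2 unit, above the line only, neither call, or below the line. All 4 AMPA and all 5 kainate receptor genes are above the line by 1 log2 unit, whereas 4 of the 5 muscle nicotinic genes are below it.

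Markers of the cells the label names gave signal, and so did markers used for other cell types. Of 8 markers of GABAergic MGE interneurons and 5 of neurons in general, all 13 were above the line by 1 log2 unit, as were 47.6% of all genes. The same call was made for 5 of 5 markers of oligodendrocyte precursors, 3 of 5 of astrocytes and 5 of 6 of radial glia and dividing progenitors. Among the astrocyte markers, Gfap (7.74 ± 0.98) was above the line only and Gjb6 (5.23 ± 0.08) was below it. Microglial markers were above the line in 3 of 5 cases, and endothelial and meningeal or pericyte markers in 4 of 4 each, against 63.4% of all genes. Of these 13, 0 were above it by 1 log2 unit in limma's adjusted test or at an unadjusted p under 0.05. Cortical glutamatergic markers were above the line in 0 of 4 cases, also at an unadjusted p under 0.05. Each array measured RNA of a whole culture, so the cell type that gave a subunit's signal cannot be told, nor can fewer cells be told apart from less RNA per cell.

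GABA-A receptors are the main inhibitory chloride channels of the brain, built from alpha and beta subunits with most often a gamma or delta subunit. Of 16 genes measured, 9 were above the line, 8 of them by 1 log2 unit, 4 were below and 3 had neither call. The alpha subunits carry the site for GABA together with beta subunits, and alpha 2, 3 and 5 are known as the prevalent alpha subunits of the embryonic forebrain. Gabra2 gave 10.44, 11.11 and 11.11 log2 units in cultures 1, 2 and 3 (mean 10.89 ± 0.39, adjusted p = 1.11e-05). Gabra3 gave 10.55, 10.64 and 10.68 (10.62 ± 0.07, adjusted p = 1.37e-06), with the cultures almost level. Gabra5, which encodes a subunit of extrasynaptic receptors, gave 9.98, 10.69 and 10.52 (10.40 ± 0.37, adjusted p = 1.40e-05). Culture 1 was the lowest of the 3 in each of these genes, and every culture lay well over the line. Gabra4, whose product pairs with the delta subunit in tonic inhibition, gave 8.78, 9.97 and 9.50 (9.42 ± 0.60, adjusted p = 0.000181). Its span of 1.19 log2 units was one of 2 among all members over 1 log2 unit, with culture 1 low and culture 2 high. Gabra6, an alpha subunit of cerebellar granule cells, gave 4.16, 4.37 and 4.29 (4.27 ± 0.11), below the line in every culture (adjusted p = 0.000100).

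The beta subunits described here had clear signal. Gabrb1 gave 8.98, 9.87 and 9.82 in cultures 1, 2 and 3 (9.56 ± 0.50, adjusted p = 8.13e-05). Gabrb2 gave 9.54, 10.16 and 9.79 (9.83 ± 0.31, adjusted p = 1.32e-05). Culture 1 was again lowest in both. Among the gamma subunits, which confer benzodiazepine sensitivity and synaptic anchoring, Gabrg1 gave 10.97, 10.77 and 10.92 (10.89 ± 0.10, adjusted p = 1.37e-06). Unlike the alpha and beta subunits it was highest in culture 1 and lowest in culture 2. Gabrg3 gave 9.29, 9.55 and 9.63 (9.49 ± 0.18, adjusted p = 4.53e-06). Gabrd, the delta subunit of extrasynaptic receptors, gave 6.94, 7.04 and 7.04 (7.01 ± 0.06, adjusted p = 0.000138), above the line by less than 1 log2 unit. At the 99th percentile of the background probe sets (7.10) it lay under the line by 0.09. The minor subunits were at or under background. The rho subunits of retina, Gabrr1 (5.30 ± 0.18) and Gabrr3 (4.97 ± 0.20), and Gabrp (5.48 ± 0.39), the pi subunit of reproductive and lung tissue, were below the line, while Gabrr2 (6.38 ± 0.25), Gabre (5.98 ± 0.21) and Gabrq (6.02 ± 0.25) had neither call. The call of Gabrp was lost without culture 1 (adjusted p = 0.118) or culture 3 (0.0508), and Gabrq was called below without culture 2 (0.0419). Gabre was called below after quantile normalization (0.0347) or median centring (0.0417).

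The GABA-A genes lie in clusters, and the stretches upstream of 4 of them are shown, a neighbouring pair with signal and a pair below the line. Gabra4 and Gabrb1, the members of the family with the lowest relative signal in culture 1, lie head to head on opposite strands of chromosome 5 and overlap by 388 bases in the RefSeq annotation. Gabra6 and Gabrp were below the line. Each line gives the 250 bases before the annotated start, 5′ to 3′ on the gene's strand, from RefSeq (GRCm38.p6), with CpG dinucleotides in capitals. The window of Gabra4 is chr5:71658309-71658558 on the minus strand, that of Gabrb1 chr5:71657671-71657920 on the plus strand, that of Gabra6 chr11:42321073-42321322 on the minus strand and that of Gabrp chr11:33578958-33579207 on the minus strand.
Gabra4: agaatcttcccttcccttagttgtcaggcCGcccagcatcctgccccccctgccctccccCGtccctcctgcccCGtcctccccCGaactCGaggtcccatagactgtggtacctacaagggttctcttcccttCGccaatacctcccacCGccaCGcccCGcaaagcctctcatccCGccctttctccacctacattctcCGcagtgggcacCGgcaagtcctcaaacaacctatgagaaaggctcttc
Gabrb1: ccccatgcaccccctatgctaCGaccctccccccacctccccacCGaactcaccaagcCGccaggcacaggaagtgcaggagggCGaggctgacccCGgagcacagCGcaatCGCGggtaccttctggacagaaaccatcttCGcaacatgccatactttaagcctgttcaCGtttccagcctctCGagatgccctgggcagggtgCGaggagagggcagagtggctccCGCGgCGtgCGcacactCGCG
Gabra6: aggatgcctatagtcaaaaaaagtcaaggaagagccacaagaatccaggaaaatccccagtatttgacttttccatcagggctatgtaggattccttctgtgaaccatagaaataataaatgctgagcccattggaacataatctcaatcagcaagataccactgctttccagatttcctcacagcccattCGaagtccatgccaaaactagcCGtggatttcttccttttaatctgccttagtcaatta
Gabrp: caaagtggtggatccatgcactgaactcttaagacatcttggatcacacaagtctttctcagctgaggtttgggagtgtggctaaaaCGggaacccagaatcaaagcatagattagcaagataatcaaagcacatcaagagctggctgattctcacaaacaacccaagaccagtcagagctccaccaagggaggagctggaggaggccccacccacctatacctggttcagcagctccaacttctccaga
CpG dinucleotides number 12 in the Gabra4 window, 18 in that of Gabrb1, 2 in that of Gabra6 and 1 in that of Gabrp.

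**Figure D2:**
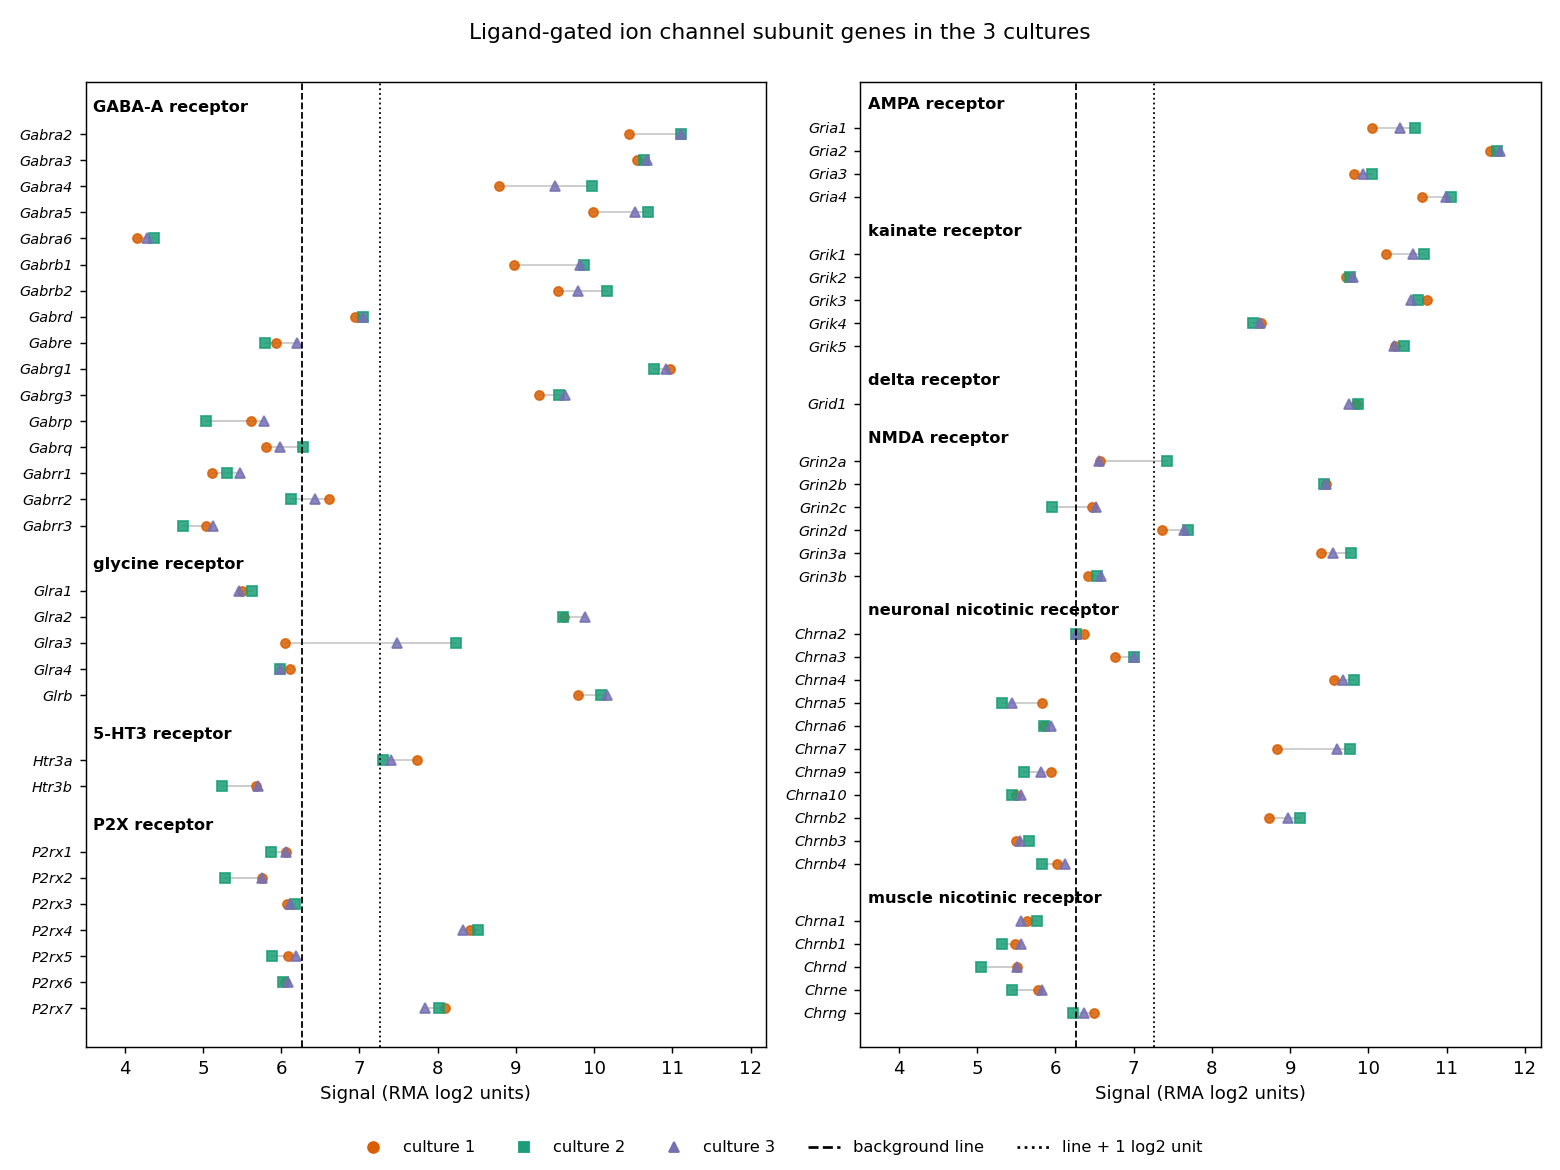
Signal of each of the 62 member genes (x axis, RMA log2 units; the probe set with the highest mean where a gene has 2) in cultures 1, 2 and 3, grouped by receptor family, with the background line (6.26, dashed) and 1 log2 unit above it (7.26, dotted). Most genes lie in all 3 cultures on 1 side of the lines, and Glra3 alone runs from 6.05 to 8.24.

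Glycine receptors, the other inhibitory chloride channels, showed the pattern of 1 alpha subunit with the beta subunit. Glra2, known as the alpha subunit of the embryonic forebrain, gave 9.61, 9.60 and 9.89 in cultures 1, 2 and 3 (9.70 ± 0.16, adjusted p = 3.29e-06). Glrb, the beta subunit that binds gephyrin, gave 9.80, 10.09 and 10.16 (10.02 ± 0.19, adjusted p = 3.62e-06). All cultures of both genes lay over 3 log2 units above the line. Glra1 (5.53 ± 0.09, adjusted p = 0.000808), the alpha subunit of adult spinal cord and brainstem, and Glra4 (6.03 ± 0.08, adjusted p = 0.0264) were below the line. The call of Glra4 was lost when any 1 culture was left out (adjusted p = 0.0655, 0.0528 and 0.169 without cultures 1, 2 and 3), and at the 90th percentile its mean lay over the line by 0.20. Glra3, an alpha subunit of spinal cord and retina, gave 6.05, 8.24 and 7.48 (7.25 ± 1.11). Culture 1 was under the line and cultures 2 and 3 over it, and the span of 2.19 log2 units was the widest of any member. Spans over 1 log2 unit occurred in 2 of 62 members, against 1.29% of all genes tested. Glra3 did not pass with all cultures (adjusted p = 0.0711) but did without culture 1 (0.0117). It also passed after quantile normalization (0.0478) and median centring (0.0349). The window upstream of Glra3, chr8:55940168-55940417 on the plus strand, is shown for that variable gene, with its 4 CpG dinucleotides in capitals.
Glra3: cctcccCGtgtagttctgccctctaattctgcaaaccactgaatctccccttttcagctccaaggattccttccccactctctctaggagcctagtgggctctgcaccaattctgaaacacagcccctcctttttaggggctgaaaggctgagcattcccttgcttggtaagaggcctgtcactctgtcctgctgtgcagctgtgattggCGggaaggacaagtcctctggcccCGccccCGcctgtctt

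AMPA receptors carry fast excitatory transmission, and all 4 of their subunit genes were above the line by 1 log2 unit. Gria1 gave 10.05, 10.59 and 10.40 in cultures 1, 2 and 3 (10.35 ± 0.27, adjusted p = 6.06e-06). Gria2, whose edited product makes the channel impermeable to calcium, gave 11.56, 11.64 and 11.68 (11.63 ± 0.06, adjusted p = 1.37e-06). Gria3 gave 9.81, 10.05 and 9.93 (9.93 ± 0.12, adjusted p = 1.98e-06). Gria4, a subunit with fast kinetics that is used by interneurons, gave 10.68, 11.06 and 10.99 (10.91 ± 0.20, adjusted p = 2.37e-06). Culture 1 was the lowest in all 4 genes, by 0.12 log2 units from the top in Gria2 and by 0.54 in Gria1. The array gives no account of editing or of the flip and flop splice forms.

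Kainate and delta receptor genes were as uniformly present. Kainate receptors act on both sides of the synapse and are prominent in interneurons, and all 5 of their genes were above the line by 1 log2 unit. Grik1, the kainate subunit of many interneurons, gave 10.22, 10.71 and 10.57 in cultures 1, 2 and 3 (10.50 ± 0.25, adjusted p = 4.59e-06). Grik2, another subunit that can form channels alone, gave 9.71, 9.76 and 9.80 (9.76 ± 0.05, adjusted p = 1.43e-06). Grik3, the subunit of low glutamate affinity, gave 10.75, 10.64 and 10.55 (10.65 ± 0.10, adjusted p = 1.40e-06). Grik1 was lowest and Grik3 highest in culture 1. The high-affinity subunits that need a partner to form channels were above the line too. Grik4 gave 8.63, 8.53 and 8.61 (8.59 ± 0.05, adjusted p = 3.06e-06). Grik5 gave 10.34, 10.45 and 10.33 (10.37 ± 0.07, adjusted p = 1.37e-06). Grid1, a delta receptor that joins presynaptic neurexins through cerebellins, gave 9.84, 9.87 and 9.75 (9.82 ± 0.06, adjusted p = 1.49e-06). In Grik2, Grik4, Grik5 and Grid1 the cultures spanned 0.12 log2 units or less.

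NMDA receptors, the coincidence detectors for glutamate and glycine, were split by subunit among the 6 genes measured. Grin1 had no probe set among the members, so its signal was not examined. Grin2b, the glutamate-binding subunit of embryonic forebrain, gave 9.46, 9.43 and 9.46 in cultures 1, 2 and 3 (9.45 ± 0.02, adjusted p = 1.47e-06). Its span of 0.03 log2 units was the narrowest of any member. A second probe set of Grin2b gave 6.41, 6.13 and 6.12 and had neither call, so the gene's call rests on 1 of its 2 probe sets. Grin3a, a glycine-binding subunit that lowers calcium entry and is prominent in early life, gave 9.40, 9.78 and 9.55 (9.58 ± 0.19, adjusted p = 4.82e-06). Grin2d, the slowly closing subunit found in interneurons, gave 7.36, 7.69 and 7.64 (7.56 ± 0.18, adjusted p = 9.68e-05), and its other probe set gave 6.61, 6.79 and 6.91 (adjusted p = 0.00218). Grin2d passed 1 log2 unit above the line by a small distance (adjusted p = 0.0253) and lost that stricter call without culture 2 or without culture 3, with the background line at the 99th percentile or from other gene families, and where its 2 probe sets were averaged.

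The subunits of later life gave weaker evidence. Grin2a, which replaces Grin2b in many mature synapses, gave 6.57, 7.42 and 6.55 (6.85 ± 0.50, adjusted p = 0.0358). All 3 cultures lay over the line, culture 2 the furthest, and the call was lost without culture 1 (0.0743) or without culture 3 (0.0691). The 4 cortical glutamatergic markers, of which 0 were above the line, were also each highest in culture 2, as were 44.3% of all genes tested. Slc17a7 gave 6.11, 7.22 and 6.63 and Slc17a6 gave 6.11, 7.01 and 6.07. The summed signal of the 4 markers was 7.94, 8.76 and 8.10 log2 units. Their part in the Grin2a signal was not tested. Grin2c, a subunit of cerebellum and of some glia, gave 6.47, 5.95 and 6.52 (6.31 ± 0.32, adjusted p = 0.544), and passed without culture 2 (0.0444). Its other probe set lay below the line (4.67 ± 0.12, adjusted p = 0.000150), and the mean of both was called below (0.00303). Grin3b, a subunit of motor neurons, gave 6.41, 6.53 and 6.58 (6.51 ± 0.09, adjusted p = 0.0117), and its call was lost without culture 2 (0.122) or culture 3 (0.0683).

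Nicotinic receptors, the cation channels opened by acetylcholine, were represented by a few of their neuronal subunits. Of 11 neuronal genes, 4 were above the line, 3 of them by 1 log2 unit, 6 were below and Chrna2 (6.30 ± 0.06, adjusted p = 0.402), which marks a class of somatostatin interneurons, had neither call. Chrna4 gave 9.56, 9.82 and 9.67 in cultures 1, 2 and 3 (9.68 ± 0.13, adjusted p = 2.53e-06). Chrnb2, its partner in the main high-affinity receptor of brain, gave 8.73, 9.12 and 8.97 (8.94 ± 0.19, adjusted p = 1.01e-05). Chrna7, which forms homomeric channels of high calcium permeability, gave 8.83, 9.76 and 9.60 (9.40 ± 0.50, adjusted p = 9.56e-05). Culture 1 was lowest in all 3, and in Chrna7 it lay 0.93 log2 units under culture 2. Chrna3, a subunit of autonomic ganglia, gave 6.76, 7.0 and 7.01 (6.93 ± 0.14, adjusted p = 0.000693), and lay under the 99th percentile line by 0.17. Its ganglionic partners were below the line, Chrnb4 at 5.99 ± 0.15 (adjusted p = 0.0420) and Chrna5 at 5.53 ± 0.27 (adjusted p = 0.00674). The call of Chrnb4 was lost without culture 1 (0.235) or culture 3 (0.0872), and that of Chrna5 without culture 2 (0.0533) or culture 3 (0.0759). Chrna6 (5.88 ± 0.05) and Chrnb3 (5.57 ± 0.09), subunits of dopamine neurons, and Chrna9 (5.79 ± 0.18) and Chrna10 (5.50 ± 0.06), subunits of cochlear hair cells, were below the line as well. Without culture 3 the call of Chrna9 was lost (0.0825). The window upstream of Chrna7, chr7:63212527-63212776 on the minus strand, is shown as that of another gene low in culture 1, with its 25 CpG dinucleotides in capitals.
Chrna7: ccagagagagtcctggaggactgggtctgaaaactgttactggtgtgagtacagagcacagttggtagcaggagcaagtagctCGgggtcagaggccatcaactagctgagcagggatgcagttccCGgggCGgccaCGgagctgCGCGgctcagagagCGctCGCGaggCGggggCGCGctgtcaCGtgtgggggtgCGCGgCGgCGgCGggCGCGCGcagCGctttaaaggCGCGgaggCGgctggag

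The nicotinic subunits of the neuromuscular junction served as a contrast. By limma's adjusted test 0 of 5 were above the line, and 0 were at an unadjusted p under 0.05 or after any alternative setting but the 90th percentile, where Chrng passed. Chrna1 (5.66 ± 0.11), Chrnb1 (5.45 ± 0.12), Chrnd (5.36 ± 0.27) and Chrne (5.69 ± 0.21) were below the line, and Chrng, the fetal gamma subunit, gave 6.49, 6.22 and 6.36 (6.36 ± 0.13) with neither call. Without culture 1 the call of Chrne was lost (adjusted p = 0.0735). Of 6 skeletal muscle markers 4 (66.7%) were above the line, near the 63.4% of all genes tested. Ckm (6.10 ± 0.10) had neither call and Myh3 (5.17 ± 0.00) was below the line. Those above were Myod1 (6.98 ± 0.09), Myog (6.86 ± 0.17), Acta1 (7.08 ± 0.04) and Tnnt3 (6.92 ± 0.07), none of them by 1 log2 unit. Among the members, Gabrd, Grin2a, Grin3b, Chrna3 and Htr3a had the same kind of call, above the line without passing the stricter test.

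The 5-HT3 receptor, the cation channel opened by serotonin, was represented by its A subunit. Htr3a gave 7.73, 7.30 and 7.40 in cultures 1, 2 and 3 (7.48 ± 0.23, adjusted p = 0.000255), all above the line, but did not pass 1 log2 unit above it (adjusted p = 0.112), and lost its call with a line from other gene families (0.0692). Htr3b, which needs Htr3a to reach the membrane, gave 5.68, 5.24 and 5.70 (5.54 ± 0.26) and was below the line (adjusted p = 0.00669), a call lost without culture 1 (0.0595). Htr3a marks interneurons of the caudal ganglionic eminence rather than of the MGE.

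P2X receptors, the channels opened by extracellular ATP, gave 2 of 7 genes above the line, both by 1 log2 unit, P2rx7 not when the line was set at the 99th percentile or from other families. P2rx4 gave 8.41, 8.52 and 8.33 in cultures 1, 2 and 3 (8.42 ± 0.10, adjusted p = 5.87e-06), and P2rx7, which is known for microglia and other glia, gave 8.09, 8.02 and 7.84 (7.98 ± 0.13, adjusted p = 1.84e-05). The cultures differed by 0.20 and 0.25 log2 units. Both receptors are commonly studied in microglia, and among the 5 microglial markers Cx3cr1 (7.20 ± 0.24), Aif1 (6.54 ± 0.11) and P2ry12 (6.48 ± 0.06) were above the line, Csf1r (6.36 ± 0.12) was not and Itgam (5.76 ± 0.15) was below it. Their summed signal was 8.88, 8.80 and 8.93 log2 units in cultures 1, 2 and 3, and their part in the P2X signal was not tested. P2rx1 (6.0 ± 0.11), P2rx2 (5.60 ± 0.28) and P2rx6 (6.05 ± 0.04) were below the line, and each of these calls was lost without culture 1 (adjusted p = 0.135, 0.0721 and 0.157) or culture 3 (0.119, 0.0582 and 0.116). P2rx3 (6.12 ± 0.05), the channel of sensory neurons, and P2rx5 (6.05 ± 0.16) had neither call, and P2rx3 was called below without culture 2 (0.0341).

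The subunits with clear signal tended to be low in the same culture. Of the 28 members above the line by 1 log2 unit, 19 (67.9%) were lowest in culture 1, against 46.6% of all 9880 genes with that call. In culture 2, 17 of the 28 (60.7%) were highest, against 56.4%. The median deviation from a gene's own mean was -0.15, 0.11 and 0.05 log2 units in cultures 1, 2 and 3 for the members and -0.03, 0.05 and -0.02 for all genes with the call. With 1 array per culture these differences have no test. Gabra4, Gabrb1, Chrna7, Gabra2 and Gabra5 lay furthest down in culture 1, as the plot of deviations shows. Gabrg1, Grik3, Grik4 and P2rx7 were instead highest there.

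Some lists of cell type markers had the same extreme in culture 1 throughout, and others did not. All 8 markers of GABAergic MGE interneurons were lowest in culture 1, with a median of 10.09, 10.47 and 10.33 log2 units and a summed signal of 13.89, 14.30 and 14.20. All 5 astrocyte markers were highest in culture 1, with a summed signal of 11.42, 10.49 and 11.04, as were all 6 markers of radial glia and dividing progenitors (13.76, 13.49 and 13.58). The astrocyte marker Gjb6 (5.23 ± 0.08) was below the background line, so its order counts for little. Of 5 general neuron markers 4 were lowest in culture 1, and Dcx was highest there. Of 5 oligodendrocyte precursor markers 4 were highest in culture 1, and Cspg4 was lowest there. Microglial, muscle, endothelial, meningeal or pericyte and cortical glutamatergic markers were neither all lowest nor all highest in culture 1. Of all genes above the line by 1 log2 unit, 46.6% were lowest and 31.7% highest in culture 1. The part of these markers in the culture differences of the subunits was not tested. Among the 20 members below the line the pattern was different, with 14 (70.0%) lowest in culture 2, against 42.9% of all genes below it. Under the line, differences in transcript level cannot be told apart from differences in array background.

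**Figure D3:**
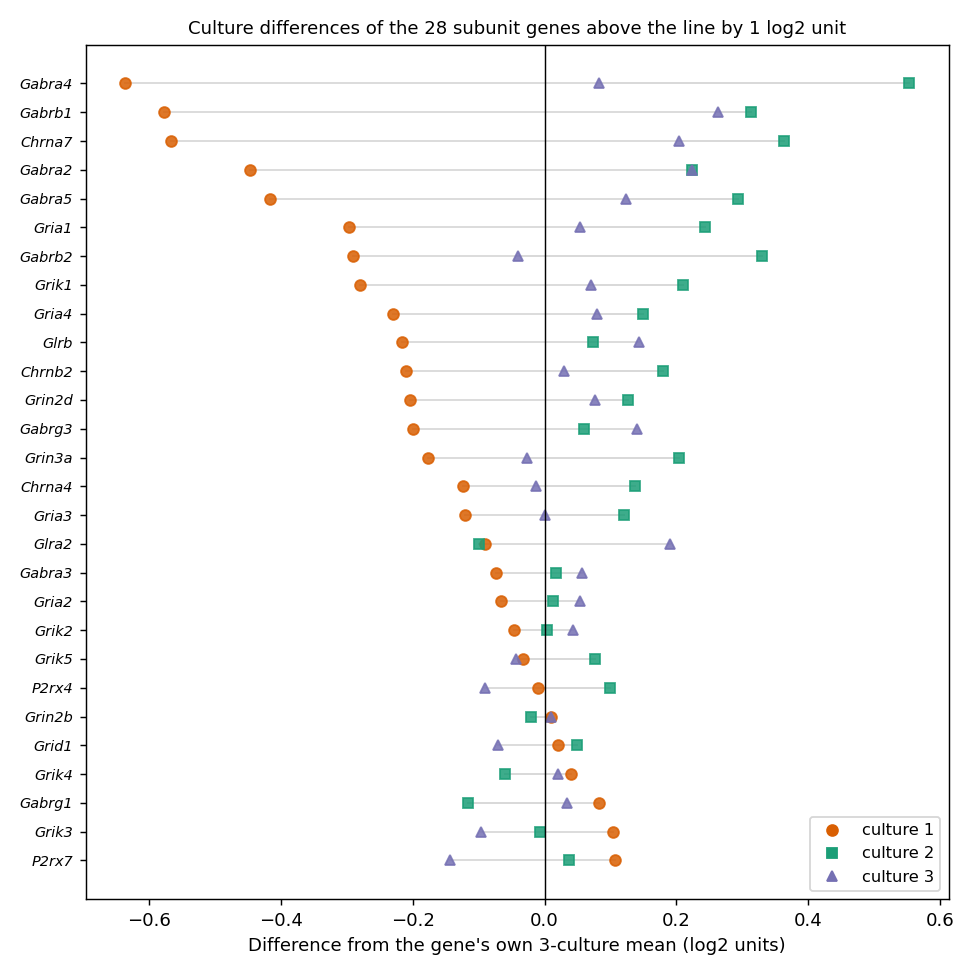
Difference of each culture from the gene's own mean over the 3 cultures (x axis, log2 units) for the 28 members above the line by 1 log2 unit, ordered by the value in culture 1. Culture 1 is the lowest point for 19 of the 28 genes, and Gabra4, Gabrb1 and Chrna7 are spread widest.

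Genes of these families that neighbour each other did not always share a call. Genes of these families lying within 500000 bases of each other in the RefSeq annotation gave 12 clusters with at least 2 measured members. In 4 clusters all measured members were above the line, in 4 none was, and 4 were mixed. Gabrg1, Gabra2, Gabra4 and Gabrb1 form the cluster with 4 measured genes, all above the line by 1 log2 unit. Gabra5 with Gabrg3, P2rx7 with P2rx4 and the unrelated neighbours Gria2 and Glrb were also above together. The mixed clusters set Gabrb2 above and Gabra6 below, Gabra3 above with neither call for Gabre and Gabrq, Chrna3 above with Chrna5 and Chrnb4 below, and Htr3a above with Htr3b below. Chrna6 with Chrnb3 were below together, and in the pairs Chrnd with Chrng, Gabrr1 with Gabrr2 and P2rx1 with P2rx5 the first was below and the second had neither call.

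Upstream windows of members above the line by 1 log2 unit held more CpG dinucleotides at the median than those of members below the line, as they did over all genes. RefSeq promoter windows could be matched for 45 of the 62 members, using the first entry listed for a gene. The 250 bases before the start held a median of 12.5 CpG in the 22 matched members above the line by 1 log2 unit and of 3 in the 15 below it, with 9.5 in the 6 that had neither call. For all genes with a window the medians were 17 and 3. Windows over 50% GC with a CpG count over 0.6 of that expected from their C and G content made up 13 of 22 (59.1%) and 1 of 15 (6.7%) of the members, against 69.0% and 9.6% of all genes with those calls. The GC box GGGCGG, searched on both strands, was in 12 of these 22 windows and in 3 of the 15, and in 4 of the 6 with neither call (66.7%, against 54.5% for the members above by 1 log2 unit). Over all genes it was in 62.9% of the windows of those above the line by 1 log2 unit and in 17.4% of those below it, and it was in 32.9% of all RefSeq windows. It was in the windows of Gabra4, Chrna7 and Glra3 and not in those of Gabrb1, Gabra6 and Gabrp shown above. The TATA box letters TATAAA, on both strands, were in 6 of the 45 windows and in 13% of all RefSeq windows. These matches describe letters only. Several subunits went against the general relation. Gabra3 held 0 and Gabrg1 held 1 CpG with clear signal, Gabre held 21 and Gabrq 19 with neither call, and Chrnb1 held 14 and was below the line.

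**Figure D4:**
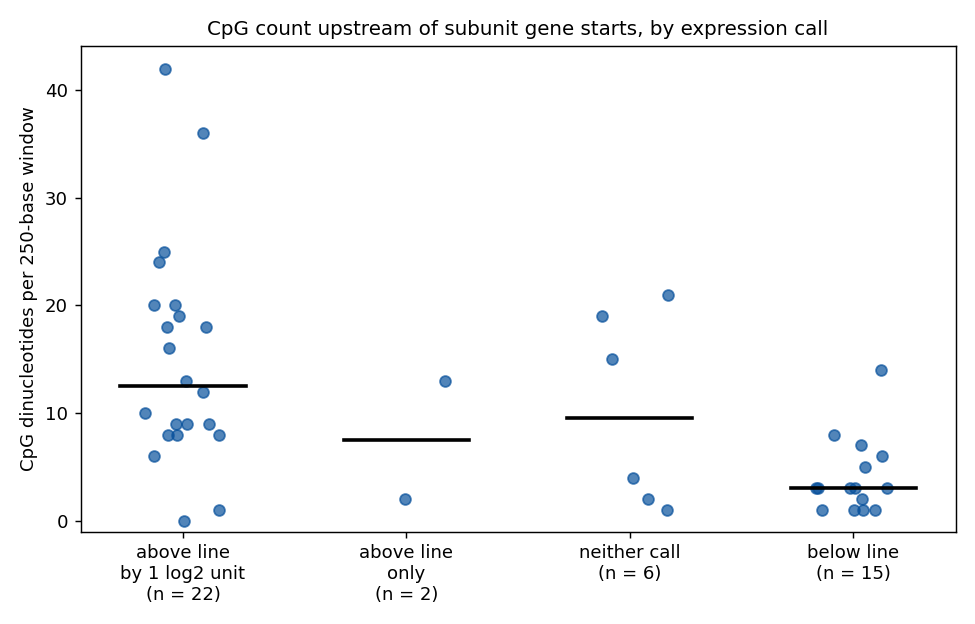
Number of CpG dinucleotides in the 250 bases before the start (y axis) of each of 45 members, by expression call (x axis), with the median as a bar. The median is 12.5 for members above the line by 1 log2 unit and 3 for members below it, and the groups overlap.

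Genes that assemble, anchor or modulate the receptors were mostly above the line. In 7 lists with 92 genes, 87 were measured and 79 (90.8%) were above, against 63.4% of all genes. Of the 87, 69 were above by 1 log2 unit and 2 below, calls made for 47.6% and 26.8% of all genes. The lists were chosen with earlier results of these data known, so the difference in shares is descriptive only. For GABA-A and glycine receptors all 20 measured genes passed, among them Gphn (10.15 ± 0.07), the scaffold gephyrin, Nlgn2 (11.15 ± 0.11), the adhesion protein of inhibitory synapses, Lhfpl4 (9.07 ± 0.18), which holds GABA-A receptors to it, and Lhfpl3 (9.37 ± 0.20), its paralogue. For AMPA receptors 20 of 21 passed, among them the auxiliary subunits Cacng2 (9.22 ± 0.26), Cacng3 (10.43 ± 0.12), Cacng4 (10.82 ± 0.09) and Cacng5 (8.23 ± 0.49), and Shisa8 (6.07 ± 0.33) did not. The partners of kainate and delta receptors passed in 8 of 10 cases, with the kainate auxiliary subunits Neto1 (11.09 ± 0.06) and Neto2 (11.38 ± 0.11) and the cerebellins Cbln1 (8.01 ± 0.19) and Cbln2 (8.31 ± 0.07) above the line and Cbln3 (6.37 ± 0.23) and C1ql2 (6.61 ± 0.37) not.

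All 14 PDZ and other partners of glutamate receptors were above the line, among them the scaffolds Dlg4 (9.92 ± 0.17), Dlg3 (8.82 ± 0.04), Dlg2 (8.52 ± 0.29) and Dlg1 (9.07 ± 0.18). Of 8 chaperones and prototoxins of nicotinic and 5-HT3 receptors 7 passed. Ric3 (7.86 ± 0.04) and Tmem35a (10.45 ± 0.06), which help nicotinic receptors fold, and Lynx1 (9.39 ± 0.29) and Ly6h (7.32 ± 0.29), which bind to them, were among the 7, and Slurp1 (6.26 ± 0.08) was not. In the list of muscle receptor clustering Musk (5.55 ± 0.00), the receptor kinase of the muscle endplate, was below the line, Rapsn (6.23 ± 0.12), its scaffold, had neither call, and Dok7 (7.15 ± 0.09), Lrp4 (7.35 ± 0.29) and Agrn (10.31 ± 0.06) were above. Of 9 genes that supply glycine, serine or zinc 7 passed, with the serine racemase Srr (9.97 ± 0.02) and the serine and glycine metabolism genes Shmt2 (10.24 ± 0.19), Phgdh (8.14 ± 0.31) and Psat1 (10.33 ± 0.18) among them. The glycine transporter of inhibitory terminals, Slc6a5 (6.12 ± 0.23), had neither call, and Dao (5.69 ± 0.06), which breaks down D-serine, was below.

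**Figure D5:**
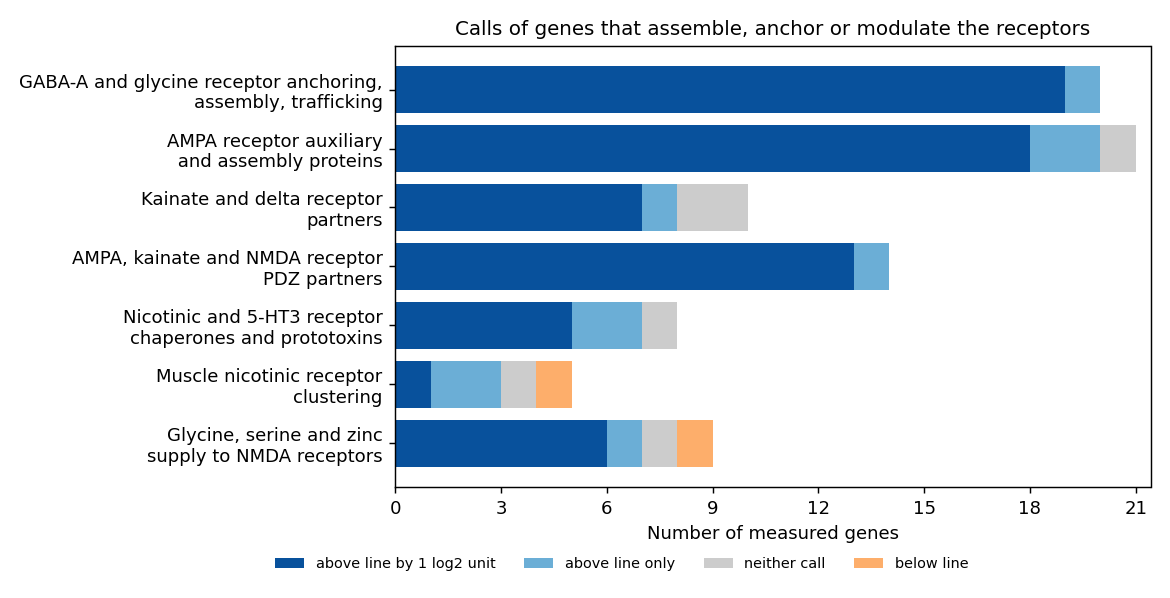
Number of measured genes per list (x axis) of proteins that assemble, anchor or modulate the receptors, by call: above the background line by 1 log2 unit, above the line only, neither call, or below the line. All 20 genes of GABA-A and glycine receptor anchoring and all 14 of the PDZ partner list are above the line, while the muscle list holds 3 of 5. The PDZ list also holds the partners Nsf, Camk2a and Camk2b, which are not PDZ proteins.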

How the data were processed

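Signals are the log2 values the authors deposited for each probe set in each culture. The submitters' processing notes name oligo and RMA, a method that subtracts background, brings arrays to 1 distribution and combines probes; the sources used here give no versions or filters. Culture medians were 6.57, 6.52 and 6.56. Arrays give no depth, and their number limits the precision. Of 41345 probe sets, 23521 carry 1 gene symbol and were used, 1814 carry several and 16010 none. All 62 member genes were found by gene ID in RefSeq (GRCm38.p6).

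In R 4.3.3, limma 3.58.1 fitted an intercept to 22081 probe sets, without the 1440 background ones. Each mean was tested 1-sided against the line in both directions and against 1 log2 unit above it, with Benjamini-Hochberg adjustment. A gene counted as above with 1 such probe set and as below only with all; for the 3 members with 2 probe sets, the one with the higher mean gives the printed value. The fit was tested on simulated data. The 12 alternatives changed the line (99th or 90th percentile, other gene families), the test, the variance prior, the normalization, the filter on dim probe sets or the summary of probe sets, or left out 1 culture. The members, lists and tests were chosen with earlier results of these data known. Any measured member may be named; of each list of other genes the first 4 measured are named, and all exceptions up to 5. Summed signals are log2 of the summed linear signals.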

Additional observations from a re-analysis of the deposited data

How the results depend on the processing

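Of the 33 members above the line 28 kept that call in all 12 alternatives, and of the 20 below it 8 kept theirs in every alternative that tested them; 1 of the 8, Gabra6, was removed by the filter on dim probe sets and so was not tested there. Over all alternatives the number above ran from 28 to 43, and the stricter call from 26 to 30 genes. The number below was 8 at the 90th percentile and 31 with other background families, in place of 20. At the 90th percentile the means of Chrna6, Chrnb4, Glra4, P2rx1 and P2rx6 lay over the line by 0.06, 0.17, 0.20, 0.18 and 0.23. At the 99th percentile the means of Chrna3, Gabrd, Grin2a and Grin3b minus the line were -0.17, -0.09, -0.25 and -0.59, and with other background families -0.29, -0.21, -0.37 and -0.71. A lower or higher line by its construction moves such calls. Without 1 culture the number above ran from 31 to 33, by 1 log2 unit from 27 to 28, below from 12 to 20 (12 without culture 1 and without culture 3), of the other receptor-related genes above from 77 to 81, and spans over 1 log2 unit from 0 to 2 (0 without culture 1). Fewer cultures also leave the test with fewer samples. No paired analysis was possible because the 3 cultures form 1 group. Levels near the line are limited by signal over background.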
